A study of Mus musculus with 3 samples.

Results

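The integrated stress response and the unfolded protein response were described through 36 genes in cells sorted from differentiating mouse embryonic stem (ES) cells and from the embryonic medial ganglionic eminence (MGE), the ventral forebrain structure that generates cortical interneurons. The genes were chosen by name as sensors, transcription factors and targets of the 2 pathways, out of 20145 genes that the arrays could name. The rule used no measured levels, but these genes and the lists used below were chosen with earlier results of these data known. A probe was assigned to a gene when the transcript it carries was a RefSeq transcript of that gene. This gave 44 probes, with 1 probe for 28 of the genes and 2 probes for the other 8.

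Gene expression was measured on 3 one-color arrays, 1 for each sorted population, all on 1 slide and from the same scan. Aggregates at D12 of differentiation were sorted into ES-Lhx6-GFP+ cells and their GFP-negative counterpart, ES-Lhx6-GFP- cells. They came from male J14 cells of the 129S4/SvJae strain, which carry an Lhx6-GFP BAC transgene and, per the labels, a viral 692-mCherry enhancer reporter. The aggregates had received 100 ng/ml of the Wnt inhibitor Dkk-1 and 6 nM of the hedgehog agonist SAG, and were dissociated with a neural tissue enzyme kit in the presence of a Rock inhibitor. MGE-GFP+ cells were sorted from the MGE of E12.5 embryos that carry the same kind of BAC transgene on a CD1 background, labelled female, and were dissociated with trypsin and DNase without any culture. Green fluorescence therefore reports the activity of Lhx6 regulatory sequence in the BAC, all ES-derived cells come from 1 line, and GFP- cells are whatever else the aggregates held. Culture against embryo, strain, sex, dissociation and medium cannot be told apart in the comparisons with MGE-GFP+ cells. With 1 array per population no test, replicate SD or p-value could be given. The values compare these arrays.

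The 3 arrays differed in brightness at the low end. The share of the 55681 mouse probes called well above background by the scanner software was 90.6% for ES-Lhx6-GFP+, 80.3% for ES-Lhx6-GFP- and 77.1% for MGE-GFP+. The median intensity of 106 control probes for viral E1A and ERCC sequences was 69.9, 11.5 and 7.73 in the same order, highest for ES-Lhx6-GFP+. Levels are given as scaled intensity, a linear unit in which the 75th percentile of each array's mouse probes is 1000. They can be compared between arrays for 1 gene and not between genes. A gene at or below the 95th percentile of the control probes, which was 504, 247 and 264 on the scaled intensity of the 3 arrays in that order, is described as within the range of the control probes. Repeat spots of a probe on 1 array had an SD of 0.140 to 0.144 on the log2 scale, and a log2 difference of about 0.40, or 1.32-fold, equals 2 SDs of a difference between single spots. That spread comes from spots of 1 array and leaves out how separate cultures, embryos, sorts and amplifications vary.

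The integrated stress response begins when kinases that sense amino acid shortage, double-stranded RNA, heme loss or misfolded protein in the endoplasmic reticulum (ER) phosphorylate the initiation factor eIF2. General translation then slows while Atf4 mRNA is translated more efficiently, and ATF4 protein turns on genes for amino acid synthesis and uptake, for the related factors CHOP and ATF5, and for feedback regulators. The unfolded protein response adds the ER sensors IRE1, which splices Xbp1 mRNA, and ATF6, and these turn on ER chaperones and the machinery that disposes of misfolded protein. Because ATF4 is controlled in translation and XBP1 by splicing, array levels of the Atf4 and Xbp1 mRNAs do not report the activity of the factors. The pathways are best known from cultured and secretory cells, and the serine and one-carbon enzymes among their targets are also prominent in dividing neural progenitors.

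The branches of the response reach their targets through short promoter elements, and sequences that hold them are shown for ATF4 targets and for ER chaperone genes. Promoters of RefSeq, from 250 bases before to 50 bases after each start site on GRCm38.p6, had entries for 31 of the 36 genes. They were searched on both strands for the C/EBP-ATF response element CARE (TGATGNAAN), for the ER stress response element ERSE (CCAAT and CCACG with 9 bases between them) and for the unfolded protein response element UPRE (TGACGTGG). CARE was found in 7 of the 31 genes, namely Asns, Chac1, Herpud1, Nupr1, Slc7a11, Trib3 and Vldlr, and in 3.95% of all 32851 promoters. ERSE was found in 4 genes, Hspa5, Hsp90b1, Calr and Creld2, and in 0.119% of all promoters. UPRE was found in 0 of the 31 genes and in 0.676% of all promoters. No entry was given for Aldh1l2, Slc7a5, Slc7a3, Manf and Cth. A match is a description of the letters and not evidence of a bound site.

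Windows around CARE matches are shown for 3 genes that were at least 2-fold higher in both ES-derived populations than in MGE-GFP+ cells (Asns, Chac1 and Nupr1) and for Slc7a11, which carries 2 matches and was not well above background on any array. Each is on the strand of the gene, 5′ to 3′, with the matches in capitals, and lies at chr6:7693210-7693272, chr2:119351008-119351096, chr7:126625533-126625621 and chr3:50443614-50443719, on the strands minus, plus, minus and minus. A window stops at the start site where that lies within 40 bases of the match.
Asns: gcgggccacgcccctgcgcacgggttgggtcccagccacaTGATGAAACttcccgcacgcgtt
Chac1: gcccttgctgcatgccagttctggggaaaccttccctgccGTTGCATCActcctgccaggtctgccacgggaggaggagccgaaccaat
Nupr1: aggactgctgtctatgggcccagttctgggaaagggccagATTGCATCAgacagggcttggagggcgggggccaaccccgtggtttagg
Slc7a11: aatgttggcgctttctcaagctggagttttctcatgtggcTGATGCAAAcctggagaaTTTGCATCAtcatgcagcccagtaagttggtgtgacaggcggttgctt

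Windows around ERSE matches are shown for Hspa5, Calr and Hsp90b1, whose levels in ES-Lhx6-GFP+ cells were below those in ES-Lhx6-GFP- cells. They lie at chr2:34771985-34772083, chr8:84847035-84847133 and chr10:86705493-86705694, on the strands plus, minus and minus, and capitals mark the matches with their 9 inner bases. Hsp90b1 holds 2 of them in opposite orientations.
Hspa5: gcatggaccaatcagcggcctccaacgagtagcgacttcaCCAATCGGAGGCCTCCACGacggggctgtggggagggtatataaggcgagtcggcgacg
Calr: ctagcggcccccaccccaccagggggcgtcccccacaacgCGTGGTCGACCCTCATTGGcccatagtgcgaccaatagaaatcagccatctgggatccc
Hsp90b1: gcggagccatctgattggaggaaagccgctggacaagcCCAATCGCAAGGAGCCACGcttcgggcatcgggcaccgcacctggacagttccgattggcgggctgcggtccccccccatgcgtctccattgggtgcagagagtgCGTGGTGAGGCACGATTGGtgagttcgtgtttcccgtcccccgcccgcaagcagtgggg

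Across the 36 genes, 35 gave a value in each comparison. Slc7a11, the cystine transporter, was not well above background on any of the 3 arrays. With Slc7a11, the range of the control probes held 7 genes on the ES-Lhx6-GFP+ array (besides it Eif2ak3, Ern1, Cebpb, Trib3, Phgdh and Cth), 3 on the ES-Lhx6-GFP- array (besides it Ern1 and Cth) and 8 on the MGE-GFP+ array (besides it Ern1, Cebpb, Nupr1, Trib3, Phgdh, Cth and Slc7a3).

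In ES-Lhx6-GFP- cells compared with MGE-GFP+ cells, 19 of the 35 genes were at least 2-fold higher and 1, Aldh1l2, was at least 2-fold lower. The median log2 difference of the 35 genes was 1.11, against 0.06 for the 17024 genes with a value. Of all those genes 17.2% were at least 2-fold higher and 9.90% at least 2-fold lower. When a gene had to exceed the control probes, 18 of 33 genes were higher and 1 lower, against 10.6% and 10.5% of all genes.

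In ES-Lhx6-GFP+ cells compared with the same MGE-GFP+ array, 10 of the 35 genes were at least 2-fold higher and 0 were lower. The median log2 difference was 0.55, against 0.36 for 18578 genes. Here 32.2% of all genes were at least 2-fold higher and 5.48% lower, so the share of 10 in 35 lay near that of all genes. With the floor at the control probes 8 of 30 genes were higher and 0 lower, against 10.1% and 7.59% of all genes. Scaling the arrays to their 50th percentile in place of the 75th changed the split to 7 higher and 5 lower (Eif2ak3, Atf4, Xbp1, Aldh1l2 and Hspa5) and the median to -0.20, because that scaling moved the median of all genes from 0.36 to -0.40. Measured from the median of all genes, the 35 genes lay 0.20 higher, and 0.50 higher after quantile normalization. The scaling percentile hardly alters this distance, because it shifts all genes of an array together. With the floor at the control probes the median of the 35 genes was 0.43, against -0.11 for all genes. It was 0.40 against 0.01 with the deposited log2 values, and 0.60 against 0.44 with no floor or filter on dim probes. In ES-Lhx6-GFP- cells the distance from the median of all genes was 1.05, and 1.11 after quantile normalization.

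Between the populations of the culture, ES-Lhx6-GFP+ cells had 0 of 35 genes at least 2-fold above ES-Lhx6-GFP- cells and 7 at least 2-fold below, with a median log2 difference of -0.47. Of 18655 genes 24.0% were higher and 6.40% lower, with a median of 0.27. Above the control probes the counts were 0 and 7 of 32 genes, against 7.10% and 5.97% of all genes. The 3 comparisons share arrays, so their values are given side by side below and are not independent of each other.

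**Figure D1:**
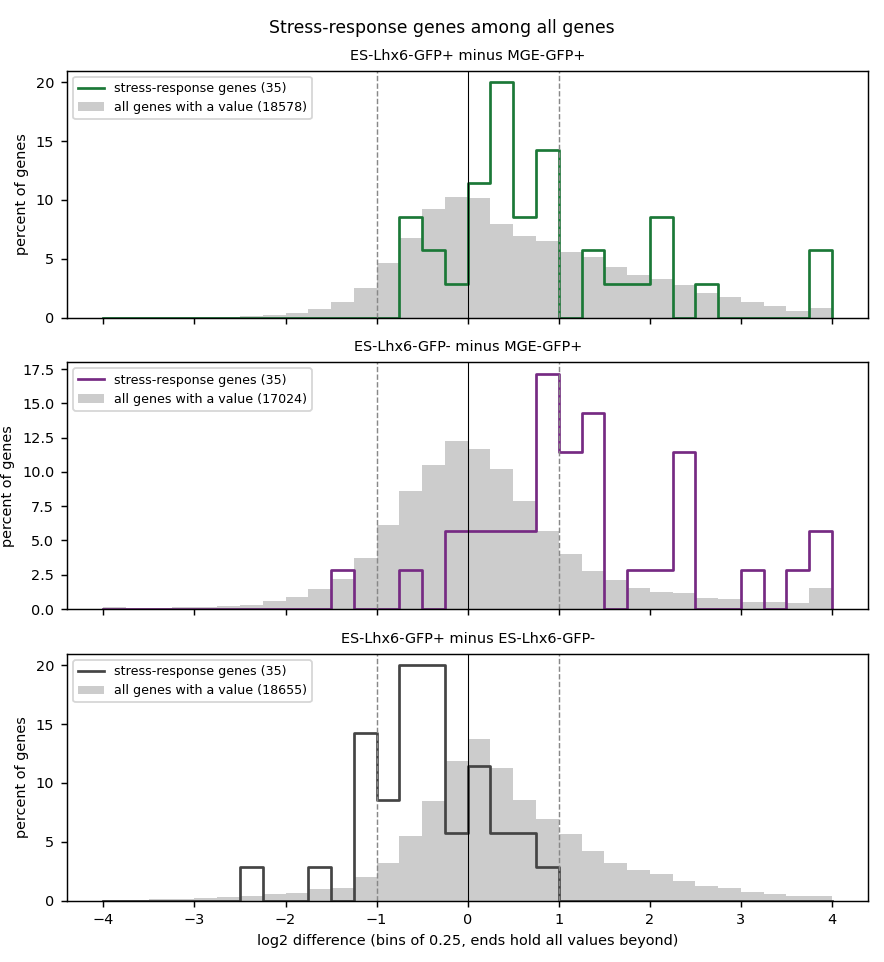
Percent of genes in bins of 0.25 log2 difference for all genes with a value (grey bars) and for the 35 stress-response genes (colored line) in the 3 comparisons, with dashed lines at 2-fold. The line lies to the right of the bars in ES-Lhx6-GFP- minus MGE-GFP+ (medians 1.11 and 0.06) and to their left in ES-Lhx6-GFP+ minus ES-Lhx6-GFP- (medians -0.47 and 0.27).

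The populations also differed in the cells they held. Of 9 markers of MGE interneurons, 9 were at least 2-fold above the ES-Lhx6-GFP- level in ES-Lhx6-GFP+ cells, and their summed scaled intensity was 119423 in ES-Lhx6-GFP+, 29589 in ES-Lhx6-GFP- and 201223 in MGE-GFP+ cells. Lhx6 itself was at 29796, 4816 and 51055 in the same order, so the order of the arrays followed the sort labels. Of 7 markers of cycling cells, 6 were at least 2-fold lower in ES-Lhx6-GFP+ than in ES-Lhx6-GFP- cells, with sums of 2990.1 in ES-Lhx6-GFP+, 11184 in ES-Lhx6-GFP- and 7153 in MGE-GFP+ cells. Of 8 markers of radial glia, 7 were at least 2-fold lower in the same comparison, with sums of 12124 in ES-Lhx6-GFP+, 60983 in ES-Lhx6-GFP- and 14741 in MGE-GFP+ cells, and Pax6 was not well above background in MGE-GFP+ cells. Of all genes 24.0% were at least 2-fold higher and 6.40% lower in ES-Lhx6-GFP+ than in ES-Lhx6-GFP- cells. Of 6 mesenchymal markers, 6 were at least 2-fold above MGE-GFP+ in ES-Lhx6-GFP+ cells and 5 of 5 with a value in ES-Lhx6-GFP- cells, with sums of 3767 in ES-Lhx6-GFP+, 5374 in ES-Lhx6-GFP- and 317 in MGE-GFP+ cells. Among them Col1a1 and Lum were not well above background in MGE-GFP+ cells and Lum was not in ES-Lhx6-GFP- cells. With the floor at the control probes 2 of 2 with a value were higher in ES-Lhx6-GFP+ and 4 of 5 in ES-Lhx6-GFP- cells. Of all genes 32.2% and 17.2% were at least 2-fold higher in these comparisons, and 10.1% and 10.6% with that floor. Summed levels of microglial markers were 1312 in ES-Lhx6-GFP+, 594 in ES-Lhx6-GFP- and 1197 in MGE-GFP+ cells, of endothelial markers 677 in ES-Lhx6-GFP+, 533 in ES-Lhx6-GFP- and 994 in MGE-GFP+ cells, and of erythroid markers 1414 in ES-Lhx6-GFP+, 832 in ES-Lhx6-GFP- and 10983 in MGE-GFP+ cells. Those of neuronal markers were 315499 in ES-Lhx6-GFP+, 256630.00 in ES-Lhx6-GFP- and 393697 in MGE-GFP+ cells, and of oligodendrocyte lineage markers 1071 in ES-Lhx6-GFP+, 7639 in ES-Lhx6-GFP- and 1148 in MGE-GFP+ cells. Single bright genes weighed on some of these sums. In the order ES-Lhx6-GFP+, ES-Lhx6-GFP-, MGE-GFP+, the erythroid sums without Hba-a1 were 548, 194 and 558. The endothelial sums without Kdr were 487, 238 and 183, and the neuronal sums without Snap25 were 107633, 69927 and 137627. Of 6 pluripotency markers, 4 were at least 2-fold above MGE-GFP+ in ES-Lhx6-GFP+ cells and 5 in ES-Lhx6-GFP- cells, against the same shares of all genes. With the floor at the control probes 0 of 1 with a value was higher in ES-Lhx6-GFP+ and 4 of 6 in ES-Lhx6-GFP- cells. The 6 markers summed to 310413 in ES-Lhx6-GFP+, 305985 in ES-Lhx6-GFP- and 391236 in MGE-GFP+ cells. The pluripotency sums came almost wholly from the probe of Nanog, and without it were 1462, 8149 and 372 in that order. The part of these cells in the results on stress genes was not tested, and in bulk RNA fewer cells of a type and less RNA per cell cannot be told apart.

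**Figure D2:**
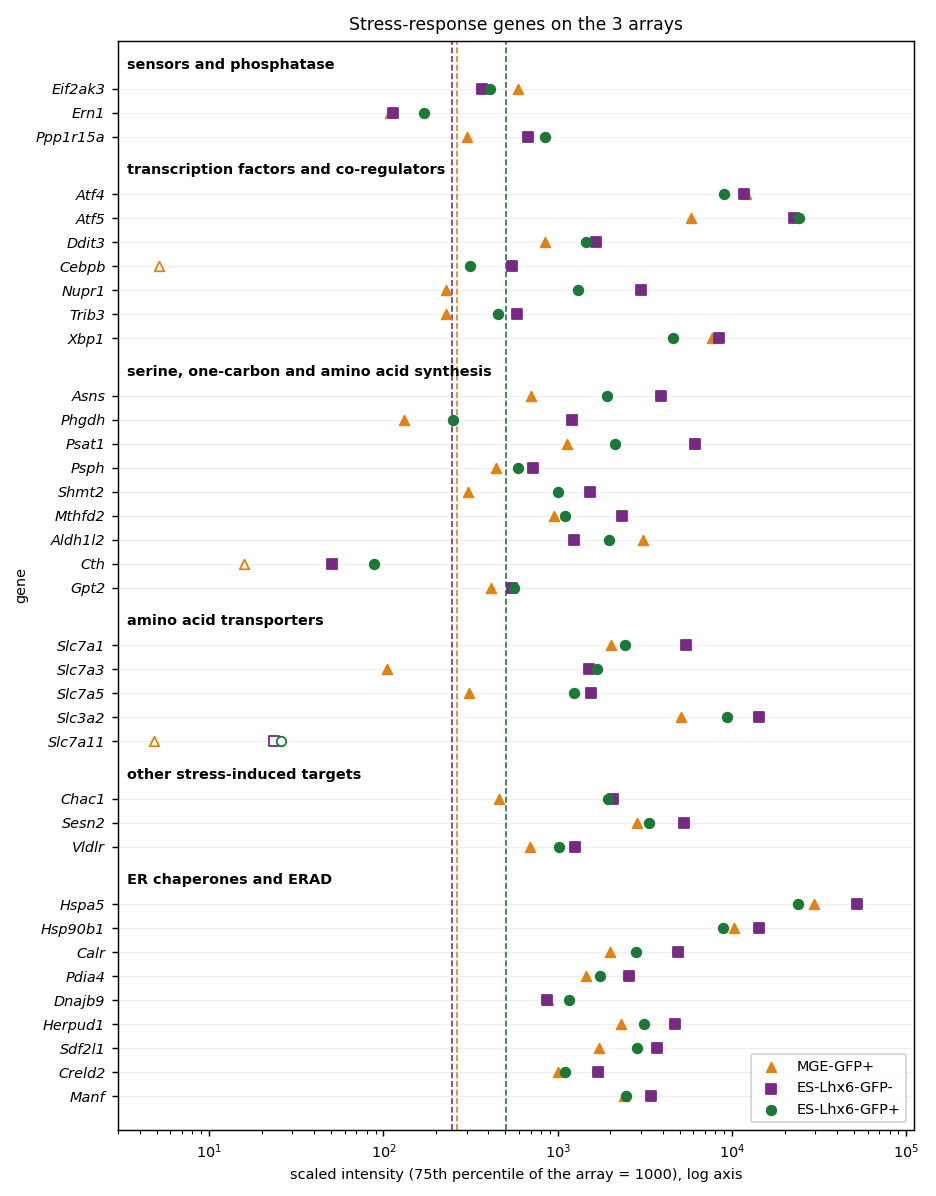
Scaled intensity on a log axis of the 36 genes on the 3 arrays, grouped by role, with 1 point per gene and array. Open symbols were not well above background, and dashed lines mark the 95th percentile of the control probes on the array of the same color (504 for ES-Lhx6-GFP+, 247 for ES-Lhx6-GFP- and 264 for MGE-GFP+). Most of the amino acid genes sit in the order MGE-GFP+, ES-Lhx6-GFP+, ES-Lhx6-GFP- from left to right.

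Of the sensors, neither ER kinase reached a difference of 2-fold between any arrays. Eif2ak3, which encodes the ER-resident eIF2 kinase PERK, had scaled intensities of 408 in ES-Lhx6-GFP+, 366 in ES-Lhx6-GFP- and 588 in MGE-GFP+ cells. It was lower in the ES-derived cells, by log2 differences from MGE-GFP+ of -0.53 in ES-Lhx6-GFP+ and -0.68 in ES-Lhx6-GFP- cells. On the ES-Lhx6-GFP+ array it was within the range of the control probes. The difference of -0.53 ranged over the settings from -1.27, past 2-fold, under the 50th percentile scaling to -0.22 with the floor at the control probes. Ern1, which encodes the splicing sensor IRE1, was at 171 in ES-Lhx6-GFP+, 114 in ES-Lhx6-GFP- and 109 in MGE-GFP+ cells and within the range of the control probes on every array, so no difference can be read from it.

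Ppp1r15a encodes GADD34, the stress-induced subunit that directs a phosphatase to eIF2 and ends the response. Its scaled intensity was 841 in ES-Lhx6-GFP+, 674 in ES-Lhx6-GFP- and 302 in MGE-GFP+ cells. ES-Lhx6-GFP+ cells were 2.78-fold and ES-Lhx6-GFP- cells 2.23-fold above MGE-GFP+ cells, while the ES-derived arrays differed by 0.32 on the log2 scale, less than 2 SDs of repeat spots. Under the 50th percentile scaling both values fell short of 2-fold, with 0.73 and 0.78 as the lowest log2 differences over all settings.

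Of the 7 transcription factors and co-regulators, Atf5, Nupr1 and Cebpb were at least 2-fold higher in both ES-derived populations than in MGE-GFP+ cells, Trib3 in ES-Lhx6-GFP- cells, and Atf4, Xbp1 and Ddit3 in neither. The counts were 3 of 7 in ES-Lhx6-GFP+ and 4 of 7 in ES-Lhx6-GFP- cells, against 32.2% and 17.2% of all genes. Atf4, the central factor of the integrated stress response, had scaled intensities of 9009 in ES-Lhx6-GFP+, 11719.9 in ES-Lhx6-GFP- and 11943 in MGE-GFP+ cells. The 3 populations lay within 1.33-fold of each other, and its 2 probes gave log2 differences of -0.55 and -0.26 between ES-Lhx6-GFP+ and MGE-GFP+. Xbp1, the factor that IRE1 splices, was at 4589.9 in ES-Lhx6-GFP+, 8434 in ES-Lhx6-GFP- and 7644 in MGE-GFP+ cells, with log2 differences from MGE-GFP+ of -0.74 in ES-Lhx6-GFP+ and 0.14 in ES-Lhx6-GFP- cells. Under the 50th percentile scaling ES-Lhx6-GFP+ cells were past 2-fold below MGE-GFP+ for both genes, with log2 differences of -1.15 for Atf4 and -1.48 for Xbp1, and Xbp1 was also -1.32 between the ES-derived arrays. The array probe for Xbp1 does not separate spliced from unspliced mRNA.

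Atf5, a related factor that ATF4 induces, was at 24298 in ES-Lhx6-GFP+, 22568 in ES-Lhx6-GFP- and 5801 in MGE-GFP+ cells. Both ES-derived arrays lay above the MGE array, by 4.19-fold for ES-Lhx6-GFP+ and 3.89-fold for ES-Lhx6-GFP-, and did not differ from each other beyond the spread of repeat spots. Over all settings the 2 log2 differences stayed at 1.32 or more and 1.66 or more. Ddit3, which encodes the pro-apoptotic factor CHOP, was at 1451 in ES-Lhx6-GFP+, 1653 in ES-Lhx6-GFP- and 841 in MGE-GFP+ cells. Its differences from MGE-GFP+ of 0.79 in ES-Lhx6-GFP+ and 0.98 in ES-Lhx6-GFP- cells on the log2 scale were both under 2-fold.

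Nupr1 encodes a small stress-induced chromatin protein. Its scaled intensity was 1311 in ES-Lhx6-GFP+, 2996 in ES-Lhx6-GFP- and 229.6 in MGE-GFP+ cells, and the 3 arrays were well separated in that order of levels, with ES-Lhx6-GFP- highest and MGE-GFP+ within the range of the control probes. It was 5.71-fold higher than MGE-GFP+ in ES-Lhx6-GFP+ cells and 13.1-fold higher in ES-Lhx6-GFP- cells. Nupr1 was also 2.28-fold lower in ES-Lhx6-GFP+ than in ES-Lhx6-GFP- cells. All 3 calls held under every setting.

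Cebpb, a bZIP factor that pairs with ATF4 on CARE sites, was at 312 in ES-Lhx6-GFP+, 543 in ES-Lhx6-GFP- and 5.18 in MGE-GFP+ cells, and was not well above background in MGE-GFP+ cells. Measured against the floor of that array, ES-Lhx6-GFP+ cells were at least 14.9-fold higher and ES-Lhx6-GFP- cells at least 25.9-fold higher. On the ES-Lhx6-GFP+ array it was within the range of the control probes, and with the floor at the control probes the bound in ES-Lhx6-GFP- cells was 1.04 on the log2 scale. Trib3, a pseudokinase that restrains ATF4 and CHOP, was at 456 in ES-Lhx6-GFP+, 581 in ES-Lhx6-GFP- and 229 in MGE-GFP+ cells. Its level in ES-Lhx6-GFP- cells was 2.54-fold that in MGE-GFP+ cells, while ES-Lhx6-GFP+ and MGE-GFP+ were within the range of the control probes.

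Of the 9 enzymes of serine, one-carbon and amino acid synthesis, 6 were at least 2-fold higher and 1 lower in ES-Lhx6-GFP- than in MGE-GFP+ cells, ES-Lhx6-GFP+ cells had 3 higher and 0 lower than MGE-GFP+, and 4 were at least 2-fold lower in ES-Lhx6-GFP+ than in ES-Lhx6-GFP- cells. The median log2 differences were 1.29, 0.91 and -0.62 in that order, against 0.06, 0.36 and 0.27 for all genes. Of all genes 17.2% were at least 2-fold higher and 9.90% lower in ES-Lhx6-GFP- than in MGE-GFP+ cells. The shares were 32.2% and 5.48% in ES-Lhx6-GFP+ against MGE-GFP+, so the 3 of 9 lay near that of all genes. In ES-Lhx6-GFP+ against ES-Lhx6-GFP- cells 6.40% of all genes were lower.

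Phgdh catalyses the first step of serine synthesis from glycolysis. Its scaled intensity was 249.9 in ES-Lhx6-GFP+, 1203 in ES-Lhx6-GFP- and 131 in MGE-GFP+ cells. The ES-Lhx6-GFP- array stood apart, 9.19-fold above MGE-GFP+ and 4.82-fold above ES-Lhx6-GFP+, and both GFP+ populations were within the range of the control probes. With the floor at the control probes, the log2 differences of 3.20 and -2.27 became 2.19 from MGE-GFP+ and -1.25 for ES-Lhx6-GFP+ minus ES-Lhx6-GFP-. Its 2 probes gave log2 differences of 3.27 and 3.13 between ES-Lhx6-GFP- and MGE-GFP+.

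Psat1, the transaminase of the next step, was at 2119 in ES-Lhx6-GFP+, 6158 in ES-Lhx6-GFP- and 1126 in MGE-GFP+ cells. The ES-Lhx6-GFP- level was 5.47-fold that of MGE-GFP+ cells, and Psat1 was 2.91-fold lower in ES-Lhx6-GFP+ than in ES-Lhx6-GFP- cells, with ES-Lhx6-GFP+ in between. Psph, the phosphatase that completes the pathway, was at 589 in ES-Lhx6-GFP+, 718 in ES-Lhx6-GFP- and 440.5 in MGE-GFP+ cells and was under 2-fold different in each comparison. Its 2 probes differed between the ES-derived arrays by -0.61 and 0.04 on the log2 scale.

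Shmt2 passes the serine carbon to the folate pool of mitochondria. It was at 998 in ES-Lhx6-GFP+, 1534 in ES-Lhx6-GFP- and 307 in MGE-GFP+ cells, and both ES-derived arrays lay above MGE-GFP+, by log2 differences of 1.70 in ES-Lhx6-GFP+ and 2.32 in ES-Lhx6-GFP- cells. Mthfd2, the mitochondrial folate dehydrogenase that follows, was at 1104 in ES-Lhx6-GFP+, 2333 in ES-Lhx6-GFP- and 957 in MGE-GFP+ cells. Here ES-Lhx6-GFP+ and MGE-GFP+ lay close together, and ES-Lhx6-GFP- stood 2.44-fold above MGE-GFP+.

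Aldh1l2, a mitochondrial enzyme that oxidises formyl-tetrahydrofolate, ran the other way. It was at 1956 in ES-Lhx6-GFP+, 1242 in ES-Lhx6-GFP- and 3089.7 in MGE-GFP+ cells, highest in MGE-GFP+ cells, with ES-Lhx6-GFP- cells 2.49-fold lower, and it was the only one of the 35 genes at least 2-fold lower in that comparison, under every setting run except the lower threshold of 1.5-fold, which added Eif2ak3.

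Asns, the asparagine synthetase, was at 1918 in ES-Lhx6-GFP+, 3899.6 in ES-Lhx6-GFP- and 701 in MGE-GFP+ cells. All 3 arrays were separated by over 2-fold, with ES-Lhx6-GFP- highest, 5.56-fold above MGE-GFP+, and ES-Lhx6-GFP+ 2.74-fold above it. The CARE match of its promoter lies 23 bases before the start site. Gpt2, the mitochondrial alanine aminotransferase, was at 563 in ES-Lhx6-GFP+, 546 in ES-Lhx6-GFP- and 415 in MGE-GFP+ cells and differed by less than 2-fold between all arrays. Cth, which makes cysteine from cystathionine, was at 88.5 in ES-Lhx6-GFP+, 50.6 in ES-Lhx6-GFP- and 15.9 in MGE-GFP+ cells, not well above background in MGE-GFP+ cells and within the range of the control probes on every array. Its fold against the floor was at least 4.11 in ES-Lhx6-GFP+ and at least 2.35 in ES-Lhx6-GFP- cells, a comparison of signals that the control probes also reach.

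**Figure D3:**
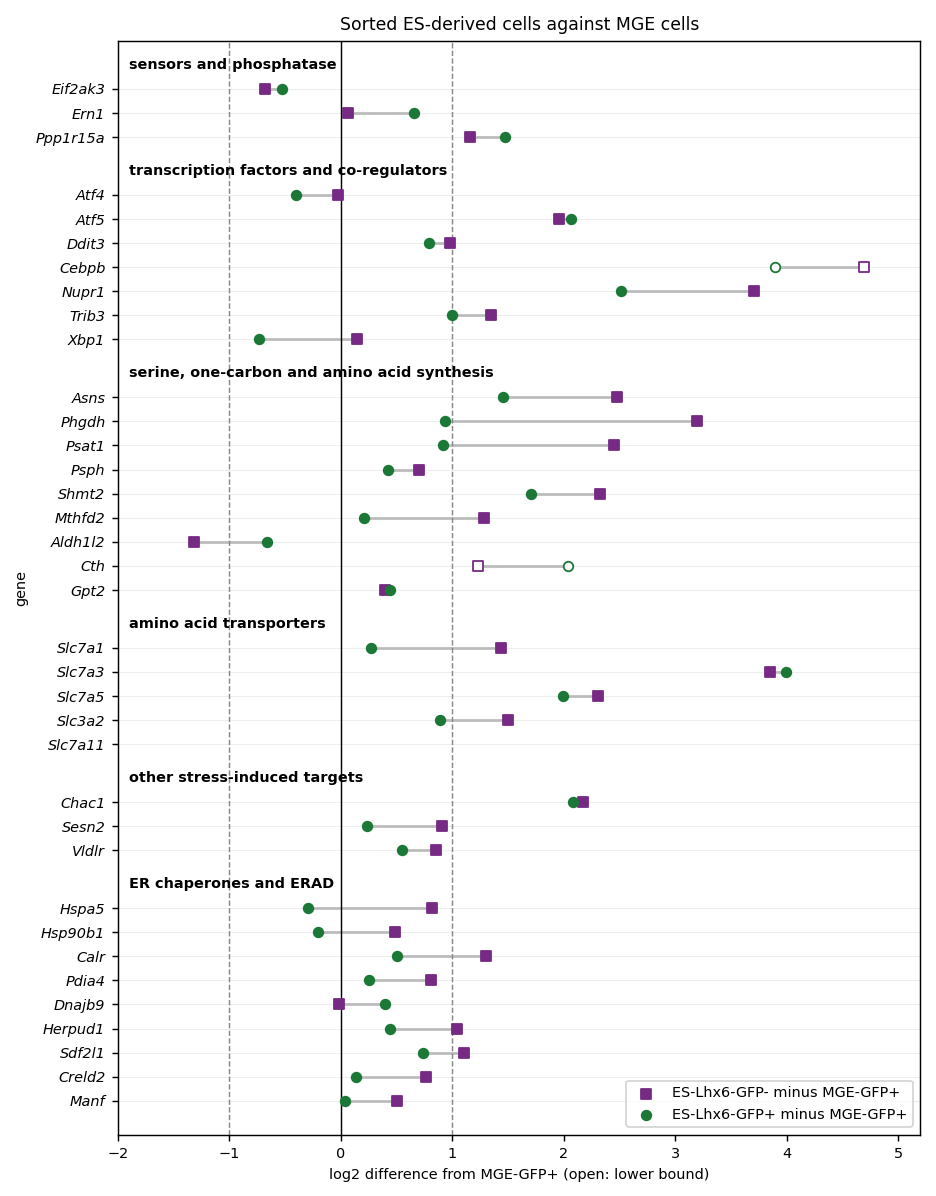
Log2 differences from MGE-GFP+ of the 35 genes with a value in ES-Lhx6-GFP+ (circles) and ES-Lhx6-GFP- cells (squares), grouped by role and joined by a line, with dashed lines at 2-fold and open symbols for lower bounds. Both sets of points are measured from 1 MGE-GFP+ array. Slc7a3, Cebpb and Nupr1 lie farthest to the right and Aldh1l2 farthest to the left, and the squares lie right of the circles for most enzymes and ER chaperones.

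Of the 5 amino acid transporters 4 had a value. Of these, 4 were at least 2-fold above MGE-GFP+ in ES-Lhx6-GFP- cells and 2 in ES-Lhx6-GFP+ cells, against 17.2% and 32.2% of all genes. Their median log2 differences were 1.90 and 1.44, against 0.06 and 0.36 for all genes. Both medians of the transporters stayed above 0 under the 50th percentile scaling, at 1.60 and 0.69, and after quantile normalization.

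Slc7a3, transports arginine and lysine. Its scaled intensity was 1679.5 in ES-Lhx6-GFP+, 1514 in ES-Lhx6-GFP- and 105 in MGE-GFP+ cells. ES-Lhx6-GFP+ cells were 16.0-fold and ES-Lhx6-GFP- cells 14.4-fold above MGE-GFP+ cells, whose level lay within the range of the control probes. With the floor at the control probes, the log2 differences were 2.67 and 2.52. The related Slc7a1 was at 2425 in ES-Lhx6-GFP+, 5431 in ES-Lhx6-GFP- and 2009.9 in MGE-GFP+ cells, and only ES-Lhx6-GFP- stood apart, 2.70-fold above MGE-GFP+ and 2.24-fold above ES-Lhx6-GFP+. The log2 difference of Slc7a1 between ES-Lhx6-GFP+ and MGE-GFP+ was 0.27, and -0.48 under the 50th percentile scaling.

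Slc7a5 and Slc3a2 encode the light and heavy chains of the transporter LAT1 for large neutral amino acids. Slc7a5 was at 1237 in ES-Lhx6-GFP+, 1544 in ES-Lhx6-GFP- and 311 in MGE-GFP+ cells, and was 3.97-fold and 4.96-fold higher in ES-Lhx6-GFP+ and ES-Lhx6-GFP- than in MGE-GFP+ cells. Slc3a2 was at 9396 in ES-Lhx6-GFP+, 14342 in ES-Lhx6-GFP- and 5075 in MGE-GFP+ cells, with ES-Lhx6-GFP- cells 2.83-fold above MGE-GFP+ and ES-Lhx6-GFP+ cells 1.85-fold above it, under the threshold of 2-fold. Both chains lay lowest in MGE-GFP+ cells, and the ES-derived arrays differed by less than 2 SDs of repeat spots for Slc7a5 and by more for Slc3a2.

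Of the other stress-induced targets, Chac1, which degrades glutathione and is a late marker of ATF4 and CHOP activity, was at 1940.05 in ES-Lhx6-GFP+, 2061 in ES-Lhx6-GFP- and 459 in MGE-GFP+ cells. Both ES-derived arrays lay above MGE-GFP+, by 4.23-fold and 4.50-fold, and differed from each other by -0.09 on the log2 scale. Sesn2, a leucine sensor that restrains mTORC1, was at 3337 in ES-Lhx6-GFP+, 5327 in ES-Lhx6-GFP- and 2836 in MGE-GFP+ cells, and Vldlr, the receptor for very low density lipoprotein and reelin, was at 1021 in ES-Lhx6-GFP+, 1257 in ES-Lhx6-GFP- and 696 in MGE-GFP+ cells. Neither passed 2-fold in any comparison. The 2 probes of Vldlr disagreed, with log2 differences between ES-Lhx6-GFP- and MGE-GFP+ of 0.01 and 1.69.

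ER chaperones and genes of ER-associated degradation (ERAD) gave small differences from MGE-GFP+ in ES-Lhx6-GFP+ cells and were mostly higher than MGE-GFP+ in ES-Lhx6-GFP- cells. They were mostly lower in ES-Lhx6-GFP+ than in ES-Lhx6-GFP- cells. In ES-Lhx6-GFP+ cells 0 of 9 were 2-fold different from MGE-GFP+ cells, and their median log2 difference was 0.25. It turned to -0.50 under the 50th percentile scaling. It lay 0.10 below the median of all genes, a distance that the scaling percentile hardly alters. After quantile normalization the median was 0.36 and lay 0.41 above that of all genes, so its side was not settled. In ES-Lhx6-GFP- cells 3 of 9 were at least 2-fold higher than in MGE-GFP+ cells, against 17.2% of all genes, and 8 of 9 were higher by more than 2 SDs of repeat spots. The median was 0.81, 0.76 above that of all genes. Under the 50th percentile scaling 0 of 9 were at least 2-fold higher, with a median of 0.51. In ES-Lhx6-GFP+ compared with ES-Lhx6-GFP- cells 8 of 9 were lower, 7 of them by more than 2 SDs of repeat spots, and 1 was at least 2-fold lower. Their median was -0.60, against 0.27 for all genes, of which 6.40% were at least 2-fold lower. The shares of all genes below 0 or past 2 SDs were not counted.

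Hspa5 encodes BiP, the ER chaperone that holds the stress sensors inactive. Its scaled intensity was 23984 in ES-Lhx6-GFP+, 51889.6 in ES-Lhx6-GFP- and 29502 in MGE-GFP+ cells. It was 2.16-fold lower in ES-Lhx6-GFP+ than in ES-Lhx6-GFP- cells, and its difference between ES-Lhx6-GFP+ and MGE-GFP+, -0.30 on the log2 scale, was smaller than 2 SDs of repeat spots. Hsp90b1, the ER member of the HSP90 family, was at 8809 in ES-Lhx6-GFP+, 14254 in ES-Lhx6-GFP- and 10188 in MGE-GFP+ cells and followed the same order, with MGE-GFP+ between the ES-derived arrays. Its difference between ES-Lhx6-GFP+ and MGE-GFP+, -0.21 on the log2 scale, was smaller than 2 SDs of repeat spots and turned positive after quantile normalization.

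Calr, which encodes the lectin chaperone calreticulin, was at 2816 in ES-Lhx6-GFP+, 4905 in ES-Lhx6-GFP- and 1992 in MGE-GFP+ cells, and ES-Lhx6-GFP- was 2.46-fold above MGE-GFP+. Pdia4, a protein disulfide isomerase, was at 1738 in ES-Lhx6-GFP+, 2563 in ES-Lhx6-GFP- and 1459 in MGE-GFP+ cells. Creld2 and Manf encode secreted ER stress proteins. Creld2 was at 1103 in ES-Lhx6-GFP+, 1698 in ES-Lhx6-GFP- and 1003 in MGE-GFP+ cells on a probe with 10 spots per array, whose spots had an SD of 0.09, 0.14 and 0.07 on the log2 scale, and Manf was at 2469.96 in ES-Lhx6-GFP+, 3423 in ES-Lhx6-GFP- and 2412 in MGE-GFP+ cells. For Pdia4, Creld2 and Manf ES-Lhx6-GFP- was highest, and ES-Lhx6-GFP+ and MGE-GFP+ differed by less than 2 SDs of repeat spots.

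Herpud1, a membrane protein of the ERAD machinery, was at 3113 in ES-Lhx6-GFP+, 4725 in ES-Lhx6-GFP- and 2297 in MGE-GFP+ cells and was 2.06-fold higher in ES-Lhx6-GFP- than in MGE-GFP+ cells. Sdf2l1, a partner of BiP, was at 2862 in ES-Lhx6-GFP+, 3702 in ES-Lhx6-GFP- and 1719 in MGE-GFP+ cells and was 2.15-fold higher in the same comparison. Dnajb9, a BiP cochaperone and target of XBP1, was at 1157 in ES-Lhx6-GFP+, 873 in ES-Lhx6-GFP- and 881 in MGE-GFP+ cells, and was the only one of the 9 that was higher in ES-Lhx6-GFP+ than in ES-Lhx6-GFP- cells. Its 2 probes gave log2 differences between ES-Lhx6-GFP- and MGE-GFP+ of -0.66 and 0.63, so it has no settled direction.

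**Figure D4:**
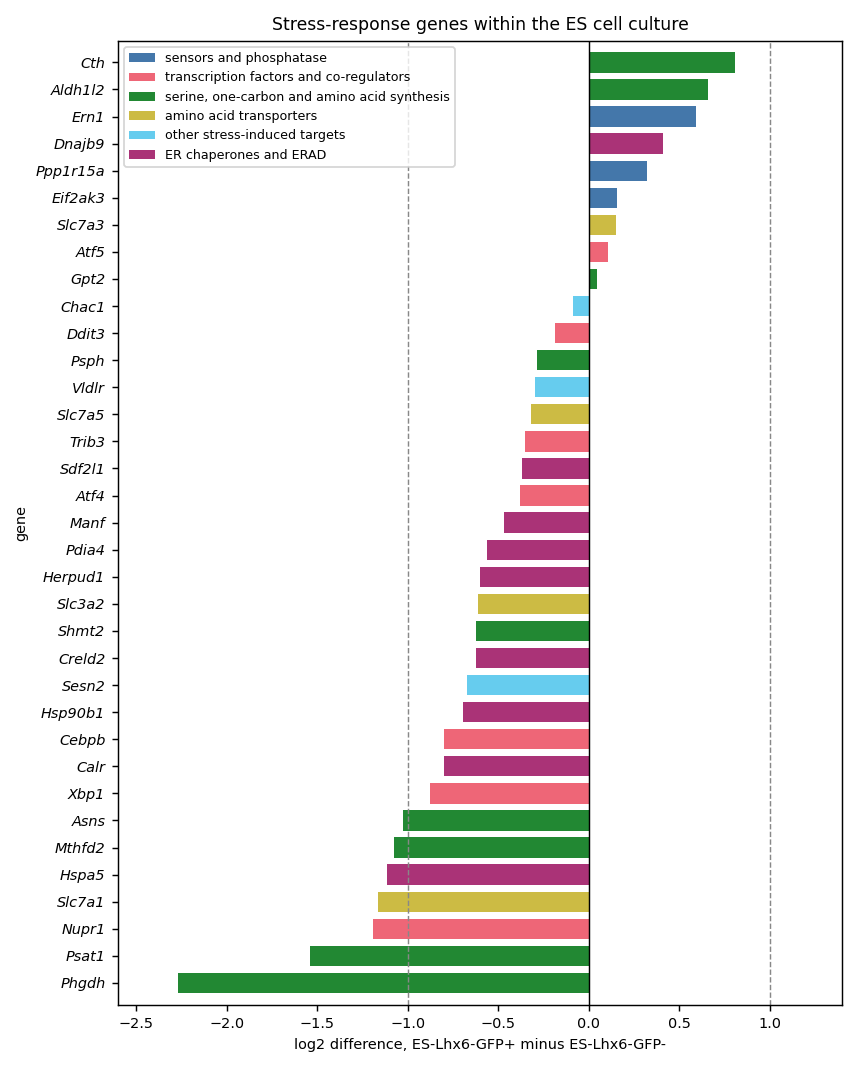
Log2 difference, ES-Lhx6-GFP+ minus ES-Lhx6-GFP-, of the 35 genes with a value, in rank order and colored by role, with dashed lines at 2-fold. The 7 genes past 2-fold are Phgdh, Psat1, Nupr1, Slc7a1, Hspa5, Mthfd2 and Asns, all with ES-Lhx6-GFP+ cells lower. Below 0 lie 26 of the 35 bars, and the median of all genes in this comparison was 0.27.

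The 7 genes at least 2-fold lower in ES-Lhx6-GFP+ than in ES-Lhx6-GFP- cells were 4 enzymes (Phgdh, Psat1, Mthfd2 and Asns), the transporter Slc7a1, Nupr1 and the chaperone Hspa5. Of these, Phgdh, Psat1, Nupr1 and Slc7a1 kept the call under all settings. Beside them, the cycling and radial glia markers were lower in ES-Lhx6-GFP+ cells by median log2 differences of -2.82 and -2.10, and their part in these differences was not tested. Atf5, Chac1 and Slc7a3 were among the genes that differed by less than 2 SDs of repeat spots between the ES-derived arrays, and each was at least 2-fold higher in both than in MGE-GFP+ cells.

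Against MGE-GFP+, the genes called under all settings in ES-Lhx6-GFP+ cells were Atf5, Chac1, Nupr1, Slc7a3 and Slc7a5. Cebpb had no value there with the floor at the control probes and was called under the other settings. In ES-Lhx6-GFP- cells the genes called under all settings were these 5 and Cebpb with Asns, Phgdh, Psat1, Shmt2, Slc3a2 and Slc7a1, all higher, and Aldh1l2, lower. The mesenchymal markers were higher than in MGE-GFP+ cells in both populations, and their part was not tested. On the ES-Lhx6-GFP+ array 2 of these 6 markers exceeded the control probes. The cycling markers had median log2 differences from MGE-GFP+ of -1.16 in ES-Lhx6-GFP+ and 1.43 in ES-Lhx6-GFP- cells, and their part was not tested. On the ES-Lhx6-GFP+ array 1 of these 7 markers exceeded the control probes.

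Other genes of the same pathways were taken from 8 lists that did not include the 36 genes. Their counts stand beside the shares of all genes given above, 32.2% at least 2-fold above MGE-GFP+ in ES-Lhx6-GFP+ cells and 17.2% in ES-Lhx6-GFP- cells. Of the 20 ATF4 and CHOP targets on the array, 18 had a value. Relative to MGE-GFP+, ES-Lhx6-GFP+ cells had 8 at least 2-fold higher and 0 lower (median 0.82), and ES-Lhx6-GFP- cells had 6 higher and 0 lower (median 0.62). With the floor at the control probes these became 3 of 11 and 4 of 15 higher, against 10.1% and 10.6% of all genes. Levels of these genes are given below as scaled intensities in the order ES-Lhx6-GFP+, ES-Lhx6-GFP-, MGE-GFP+. Bbc3, which encodes the pro-apoptotic protein PUMA, was at 4423, 4008 and 584, a difference from MGE-GFP+ of 2.92 and 2.78 on the log2 scale. Atf3, a stress-induced repressor, was at 246, 263 and 31.8 and exceeded the range of the control probes in ES-Lhx6-GFP- cells only. Mthfd1l, the mitochondrial formate producer, was at 295.9, 705.3 and 106.7, and Slc6a9, a glycine transporter, at 666, 1326 and 287. Stc2, a secreted glycoprotein, was at 965, 354 and 234, 2.73-fold higher in ES-Lhx6-GFP+ than in ES-Lhx6-GFP- cells, while Mthfd1l and the mTORC1 inhibitor Ddit4 (at 2945, 6747 and 3723) were at least 2-fold lower there. Mthfd1l was within the range of the control probes in both GFP+ populations, and Stc2 was in MGE-GFP+ cells. With the 50th percentile scaling the count of ATF4 and CHOP targets in ES-Lhx6-GFP+ cells became 3 higher and 3 lower.

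The 20 cytosolic aminoacyl-tRNA synthetases, several of which are ATF4 targets, were little different. In ES-Lhx6-GFP+ cells 0 were at least 2-fold higher and 2 lower than in MGE-GFP+ cells (median 0.11, and -0.64 under the 50th percentile scaling), namely Eprs at 1847, 2969.5 and 5680.4 and Tars at 1771, 2805 and 4975. In ES-Lhx6-GFP- cells 1 was higher, Dars at 1541, 2558 and 1017, and 1 lower, Farsb at 1969, 1615 and 3493 (median 0.31). Between the ES-derived arrays 0 of 20 passed 2-fold. Of 14 genes for eIF2 kinases, phosphatase subunits and the exchange factor eIF2B, Nck1, an adaptor that recruits a phosphatase to the ER, was lower in both ES-derived populations, at 691, 496 and 1649. Eif2ak2, the kinase that senses double-stranded RNA, was at 426, 507 and 169 and Gcn1, the coactivator of the amino acid sensor, at 2656, 3135 and 1441, both at least 2-fold above MGE-GFP+ in ES-Lhx6-GFP- cells. Eif2ak2 was within the range of the control probes in both GFP+ populations.

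Of 24 further ER chaperone, folding and ERAD genes, 5 were at least 2-fold higher and 0 lower in ES-Lhx6-GFP+ (median 0.02), and 6 higher and 1 lower in ES-Lhx6-GFP- than in MGE-GFP+ cells (median 0.53). The 5 of 24 lay below the share of 32.2% of all genes, and with the floor at the control probes 2 of 19 and 4 of 23 were higher. Dnajc3, the cochaperone that inhibits PERK, was at 672, 441 and 238, Dnajb11, a BiP cochaperone, at 1054, 358 and 247, and Ero1b, an oxidase of ER disulfides, at 808, 644 and 309. Serp1, which stabilises membrane proteins at the translocon, was at 1927, 4404 and 2024 and Wfs1, the ER membrane protein wolframin, at 326, 1020.3 and 337, both at least 2-fold above the other two arrays in ES-Lhx6-GFP- cells. Sec24d, a coat protein of ER export vesicles, was at 137, 267 and 5.52 and not well above background in MGE-GFP+ cells. It was within the range of the control probes in both GFP+ populations. Of 7 ER stress sensors and site proteases, Creb3l2, a membrane-bound factor cleaved like ATF6, was at 266, 617 and 15.2. Its level in ES-Lhx6-GFP- cells was at least 29.4-fold that in MGE-GFP+ cells, where it was not well above background. That bound is measured against the floor of the MGE-GFP+ array, while its control probes reach 264 at their 95th percentile. Creb3l2 was within the range of the control probes in both GFP+ populations.

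Stress genes outside these pathways gave no uniform difference. Of 10 cytosolic heat shock genes on the array, 3 were at least 2-fold higher in each ES-derived population than in MGE-GFP+ cells, with medians of -0.09 and 0.09, and 1 was lower in ES-Lhx6-GFP- cells. Hspb1, a small heat shock protein, was at 279.7, 2017 and 14.3, Hspa1a, the inducible HSP70, at 262, 328 and 33.1, and Bag3, its cochaperone, at 1114, 1327 and 191. Hspb1 and Hspa1a were within the range of the control probes in both GFP+ populations, and Bag3 was in MGE-GFP+ cells. Hspb1 was not well above background in MGE-GFP+ cells. With the floor at the control probes 1 of 8 was higher in ES-Lhx6-GFP+ and 2 of 10 in ES-Lhx6-GFP- cells. Of 8 mitochondrial chaperones and proteases 0 were higher, and the chaperonin gene Hspd1, at 6978, 12555 and 14499, was 2.08-fold lower in ES-Lhx6-GFP+ than in MGE-GFP+ cells. Of 9 targets of the oxidative stress factor NRF2 with a value in ES-Lhx6-GFP- cells, 3 were higher and 1 lower than in MGE-GFP+ cells. Among them were Prdx1, a peroxiredoxin, at 916, 2554 and 1193 and Hmox1, heme oxygenase, at 576, 824 and 406, both higher, and Txnrd1, thioredoxin reductase, at 2184, 1849 and 5151, lower in both ES-derived populations. Gsr, glutathione reductase, was at 563, 2020.2 and 1168 and, like Prdx1, was at least 2-fold lower in ES-Lhx6-GFP+ than in ES-Lhx6-GFP- cells.

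**Figure D5:**
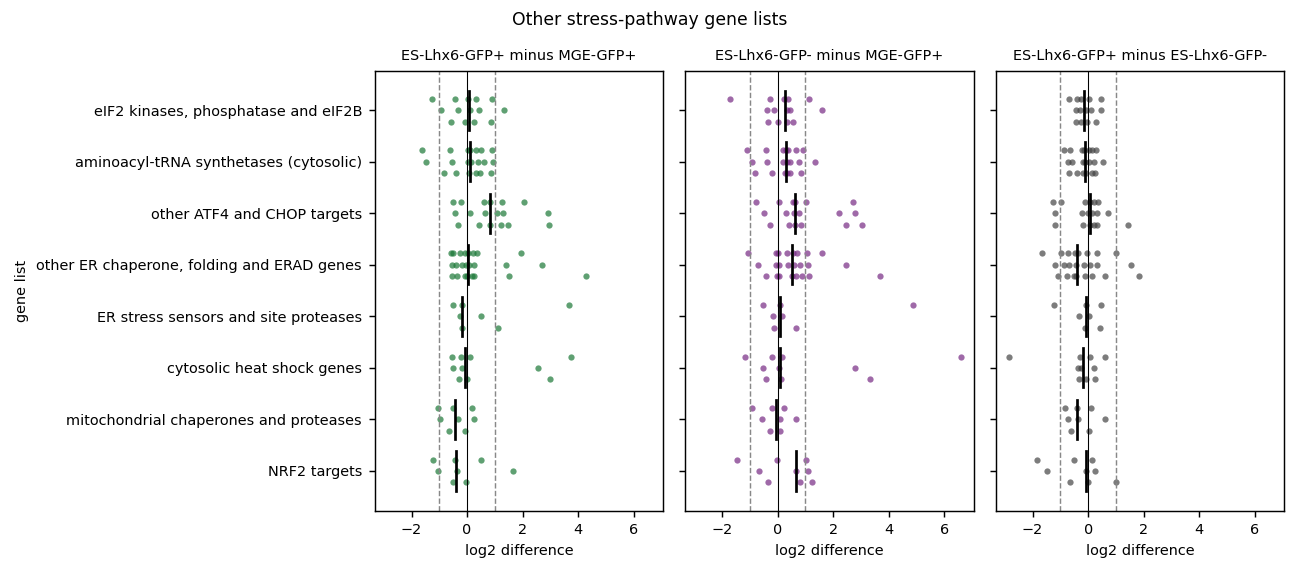
Log2 differences of the genes of 8 other stress-pathway lists in the 3 comparisons, with 1 point per gene (lower bounds included, such as Hspb1 and Creb3l2), a black bar at the median of each list and dashed lines at 2-fold. The ATF4 and CHOP targets have medians of 0.82 and 0.62 from MGE-GFP+, and the aminoacyl-tRNA synthetases have medians of 0.11 and 0.31.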

How the data were processed

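Per the labels and the paper's methods, the authors sorted the cells, amplified total RNA, labeled it with Cy3 and hybridized 1 array per population. The kits and the array format differ between these sources. The deposited scanner files hold intensity on a linear scale, background-subtracted by Feature Extraction 10.7.3.1 (file headers) and not scaled between arrays. A table of log2 values was also deposited, its normalization is not stated, and it lay within 0.163, 0.315 and 0.212 of quantile-normalized log2 median spot intensities for ES-Lhx6-GFP+, for ES-Lhx6-GFP- and for MGE-GFP+. Its column medians were 7.69, 7.68 and 7.69.

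From the scanner files, log2 intensity minus the 75th percentile of the array's mouse probes was taken. Outlier-flagged spots were dropped (135, 137 and 98), 0 were saturated, and repeat spots were averaged. A probe counted as well above background when at least 0.5 of its spots were so called. Otherwise a floor was used, the array's lowest normalized value of a probe so called, and folds against it are written "at least". RefSeq accessions named 26582 of 55681 probes. A gene value is the mean over its probes, and a call is a difference of at least 2-fold. The number of arrays limits the precision. Of the other lists, up to 3 genes per comparison were named, those with the largest difference past 2-fold that exceeded the control probes on an array compared. The 36 genes, the 8 lists and the 10 marker lists were chosen with earlier results of these data known. Alternatives were the 50th percentile, quantile and normexp (limma 3.58.1, R 4.3.3, on median signals, offset 50) normalizations, the deposited table, 2 other floors, the brightest probe, outlier spots kept and a threshold of 1.5-fold. Centring on genes above the control probes was added after seeing the data. The procedure was tested on simulated data, with Python 3.11.15, numpy 2.4.6, pandas 2.3.3 and matplotlib 3.10.9.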

Additional observations from a re-analysis of the deposited data

Results flagged for a closer look

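Hspa5, Hsp90b1, Xbp1 and Dnajb9 had log2 differences from MGE-GFP+ cells of opposite sign in the ES-derived populations. Hspa5 gave log2 differences of -0.30 in ES-Lhx6-GFP+ and 0.81 in ES-Lhx6-GFP- cells, and Hsp90b1 gave -0.21 and 0.48. Xbp1 gave -0.74 and 0.14. Dnajb9 gave 0.39 and -0.013, in the other direction. The values -0.30, -0.21, 0.14, 0.39 and -0.013 are each smaller than 2 SDs of repeat spots, both comparisons use the 1 MGE-GFP+ array, and the differences were not tested. The opposite signs of Xbp1, Hsp90b1 and Dnajb9 did not hold under all settings. With the 50th percentile Xbp1 gave -1.48 and -0.16, the deposited log2 values gave 0.19 for Hsp90b1 in ES-Lhx6-GFP+ cells, and the brightest probe of Dnajb9 gave 0.68 and 0.63.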

How the results depend on the processing

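Of the 10 genes at least 2-fold above MGE-GFP+ in ES-Lhx6-GFP+ cells, 5 kept the call under every setting with that threshold, and Cebpb under all but the floor at the control probes, where it had no value. All settings kept 13 of 20 in ES-Lhx6-GFP- against MGE-GFP+ and 4 of 7 between the ES-derived populations, and all called genes with a value kept their direction. Scaling to the 50th percentile gave 5 lower genes and a median of -0.20 in ES-Lhx6-GFP+ against MGE-GFP+ (0 and 0.55 with the 75th), a median of 0.80 in ES-Lhx6-GFP- against MGE-GFP+ (1.11), and 17 lower genes and a median of -0.91 between the ES-derived populations (7 and -0.47). With it, 14 genes turned from higher to lower in ES-Lhx6-GFP+ against MGE-GFP+. A threshold of 1.5-fold gave 17 higher and 2 lower genes in ES-Lhx6-GFP+ and 2 lower genes in ES-Lhx6-GFP- against MGE-GFP+, and 3 higher and 16 lower between the ES-derived populations. Normexp lowered the median in ES-Lhx6-GFP- against MGE-GFP+ to 0.89, the brightest probe gave 1 higher gene between the ES-derived populations, and the deposited log2 values gave 4 lower genes there. Other than by the construction of each setting, the cause was not tested. The planned match by gene symbol column was not run, since the files used here carry none. No paired analysis was possible because each population has 1 array. Signal over background limits the genes within the range of the control probes on at least 1 array, Ern1, Cth, Slc7a11, Cebpb, Trib3, Phgdh, Eif2ak3, Nupr1 and Slc7a3.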
